A study of Mus musculus with 19 samples.

Results

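Hedgehog signalling was followed through 9 genes, namely the ligands Ihh, Shh and Dhh, the receptor Ptch1, the transducer Smo, the transcription factors Gli1, Gli2 and Gli3, and the ligand-binding inhibitor Hhip. They were chosen by name, as the core of the pathway, and each was represented by 1 RefSeq transcript, so that 9 of the 30455 transcripts and 9 of the 23337 gene symbols in the table are described here. RNA-seq was available for 11 libraries in 5 groups. These were visceral yolk sac (VYS) endoderm (ysE) at E9.25 (2 libraries) and at E12.5 (1 library), VYS mesoderm at E9.25 (2), fetal liver at E12.5 (2), all from FVB mice, and cystic embryoid bodies (EBs) from C57Bl/6x129 ES cells (4), which were 1 library each of clone A9 and clone JN at day 10 (d10) and at day 15 (d15) of differentiation. Each tissue sample was a pool of a whole litter. The layers were peeled apart by hand after Dispase treatment, and the mesoderm sample kept the vasculature and the basement membrane, so its cell types were read together. Cystic EBs are hollow aggregates with several cell types, and no cell type was purified from them. Methylation was read in E12.5 ysE, E12.5 liver and d15 cystic EBs from reciprocal crosses of CAST and FVB (2 libraries each, CxF and FxC), and H3K4me3 in 1 sample of whole E12.5 VYS from FVB mice, in which the layers were not separated. The cystic EBs read for methylation came from ES clones C2 (CxF) and A2 (FxC). Methylation and RNA of cystic EBs were thus read in different ES clones.

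Hedgehog ligands are secreted, lipid-modified proteins that bind the receptor Ptch1 on neighbouring cells. Without ligand, Ptch1 keeps Smo inactive. When ligand binds, Smo enters the primary cilium and the GLI factors turn on targets that include Gli1, Ptch1 and Hhip themselves, so the level of these transcripts is widely used as a readout of the pathway. Gli2 acts mainly as an activator and Gli3 mainly as a repressor. In the yolk sac, Ihh is known as the ligand of the visceral endoderm, and the adjoining mesoderm, in which blood and vessels form, is known as its target.

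Total counts per library ran from 40453779 (E12.5 ysE) to 169981821 (E9.25 ysE B), and all 9 transcripts passed the filter on low counts. The library kit differed between groups. The 4 E9.25 libraries and both JN libraries were made with dUTP, both liver and both A9 libraries with ScriptSeq, and the E12.5 ysE library was non-stranded, so the comparison of the E9.25 layers was made within 1 kit and that of the clones was not. The layers matched their labels: the 8 endoderm markers (Afp, Ttr, Apoa1, Apob, Amn, Cubn, Hnf4a and Rbp4) summed to 11074 to 12477 RPKM in E9.25 ysE and to 1223 to 2175 in mesoderm, and the 8 mesoderm markers (Kdr, Pecam1, Cdh5, Tek, Col1a1, Col3a1, Acta2 and Pdgfrb) summed to 31.8 to 50.5 and to 1092 to 1231. No marker of either list was at 0 in any library, and the separation was not complete, as the summed endoderm markers in mesoderm stood at 14.4% of their level in ysE. RPKM is the read count divided by transcript length and library size, as the authors computed it, and every level below is on this scale. Of the endoderm markers, 7 of 8 were lower in mesoderm (Afp was not called, log2 -3.01, adjusted p = 0.125), and of 4 hepatocyte and 4 neural markers 1 each passed, lower and higher in mesoderm.

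The promoters that the chromatin data below bear on are shown here for the main ligand (Ihh), the receptor and the inhibitor (Ptch1 and Hhip), the GLI factor with methylation reads at its start site (Gli2), and the ligand without an H3K4me3 peak at its start site (Dhh). Each runs from 250 bases before to 50 bases after the RefSeq start site on GRCm38.p6, 5′ to 3′ on the gene's strand, with CpG sites in capitals.
Ihh, chr1:74951623-74951922, minus strand: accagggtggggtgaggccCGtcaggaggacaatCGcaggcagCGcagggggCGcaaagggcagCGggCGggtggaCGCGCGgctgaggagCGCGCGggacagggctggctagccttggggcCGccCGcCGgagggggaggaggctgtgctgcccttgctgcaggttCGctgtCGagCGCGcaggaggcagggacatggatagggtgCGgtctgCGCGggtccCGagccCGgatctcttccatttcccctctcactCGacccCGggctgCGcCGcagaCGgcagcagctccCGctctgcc
Ptch1, chr13:63565686-63565985, minus strand: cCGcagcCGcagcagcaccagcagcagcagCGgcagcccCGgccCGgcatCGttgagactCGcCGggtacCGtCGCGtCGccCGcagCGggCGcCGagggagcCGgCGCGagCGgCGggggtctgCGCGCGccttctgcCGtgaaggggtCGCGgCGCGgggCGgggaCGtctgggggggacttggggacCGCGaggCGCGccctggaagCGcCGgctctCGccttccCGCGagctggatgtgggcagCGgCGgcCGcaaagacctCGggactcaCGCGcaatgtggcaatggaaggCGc
Hhip, chr8:80057959-80058258, minus strand: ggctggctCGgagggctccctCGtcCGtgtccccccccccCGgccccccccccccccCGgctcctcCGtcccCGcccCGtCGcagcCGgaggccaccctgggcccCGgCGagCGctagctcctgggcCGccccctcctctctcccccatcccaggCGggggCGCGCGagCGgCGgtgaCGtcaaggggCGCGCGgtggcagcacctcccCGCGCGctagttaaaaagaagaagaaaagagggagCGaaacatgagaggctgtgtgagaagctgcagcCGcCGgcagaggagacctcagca
Gli2, chr1:119053570-119053869, minus strand: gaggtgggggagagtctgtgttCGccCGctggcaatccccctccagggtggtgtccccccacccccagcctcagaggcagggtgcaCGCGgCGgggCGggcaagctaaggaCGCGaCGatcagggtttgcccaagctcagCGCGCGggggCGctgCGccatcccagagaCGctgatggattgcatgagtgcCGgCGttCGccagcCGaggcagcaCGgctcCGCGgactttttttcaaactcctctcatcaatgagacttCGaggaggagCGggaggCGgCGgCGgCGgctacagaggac
Dhh, chr15:98898491-98898790, minus strand: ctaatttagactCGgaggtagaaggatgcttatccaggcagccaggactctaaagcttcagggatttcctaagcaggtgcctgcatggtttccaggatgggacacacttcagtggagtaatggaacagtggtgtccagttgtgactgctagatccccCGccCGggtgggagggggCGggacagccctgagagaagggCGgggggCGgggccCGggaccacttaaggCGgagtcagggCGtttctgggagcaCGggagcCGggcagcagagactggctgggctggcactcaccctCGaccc
The sequences of Ihh, Ptch1, Hhip and Gli2 held 30, 47, 30 and 28 CpG sites in 300 bases, and that of Dhh held 12. The median over the 32851 promoters of the same length was 7 and the upper quartile 20, so the first 4 were rich in CpG and Dhh lay between median and upper quartile. Smo had 17 and Gli3 39. RefSeq promoters were at hand for 7 of the 9 genes, not for Shh and Gli1. The core of the GLI binding motif, CCACCCA, searched on both strands, was in none of the 7 and in 9.30% of all promoters of this length, which says only that these letters are not in these windows.

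Ihh was the main ligand transcript of the endoderm. Its transcript (NM_010544, chr1:74945315-74951672) stood at 3.79 and 5.06 RPKM in E9.25 ysE A and B and at 3.39 in E12.5 ysE. Mesoderm A and B had 0.549 and 0.941 RPKM, below each ysE library. Ihh was 2.88 lower in mesoderm than in ysE on the log2 scale (SE 0.45, adjusted p = 0.00148). This and every later adjusted p not credited to another tool came from the quasi-likelihood test of edgeR, adjusted after Benjamini and Hochberg over 24858 transcripts. The mesoderm level was 16.8% of that in ysE, inside the 9.0% to 21.3% that the 8 endoderm markers gave. Per 1000 RPKM of summed endoderm markers, Ihh stood at 0.343 and 0.406 RPKM in ysE A and B and at 0.449 and 0.433 in mesoderm A and B, so the mesoderm library with more endoderm marker RNA also had more Ihh. The part of endoderm RNA in the mesoderm value was not tested.

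Dhh had the opposite distribution. This ligand, known from Schwann cells, the testis and endothelium, was at 0.832 and 0.972 RPKM in mesoderm and at 0.163 and 0.0900 in E9.25 ysE, and the layers did not overlap. It was higher in mesoderm by 2.52 (log2, SE 0.57, adjusted p = 0.00857). The call was lost without ysE B (2.15, adjusted p = 0.0752) and without mesoderm B (2.37, adjusted p = 0.0527). Dhh in ysE was 14.0% of its level in mesoderm, above the 2.75% to 9.29% of the mesoderm markers. Shh, the ligand of notochord, floor plate and gut epithelium, was barely measured in either layer, with 2 and 8 reads in ysE A and B (0.00600 and 0.0170 RPKM) and 6 and 2 in mesoderm A and B (0.0200 and 0.00600 RPKM). The layers overlapped, and no difference was detectable at this depth (log2 -0.29, SE 1.30, adjusted p = 0.902).

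Ihh made up 95.7% and 97.9% of the summed RPKM of the 3 ligands in ysE A and B, whereas Dhh made up 59.4% and 50.7% in mesoderm A and B. Together the ligands stood at 3.96 and 5.17 RPKM in ysE and at 1.4 and 1.92 in mesoderm. Ihh held 39.2% and 49.0% of the mesoderm sums, so both ligands were read there, while ysE had little besides Ihh.

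**Figure D1:**
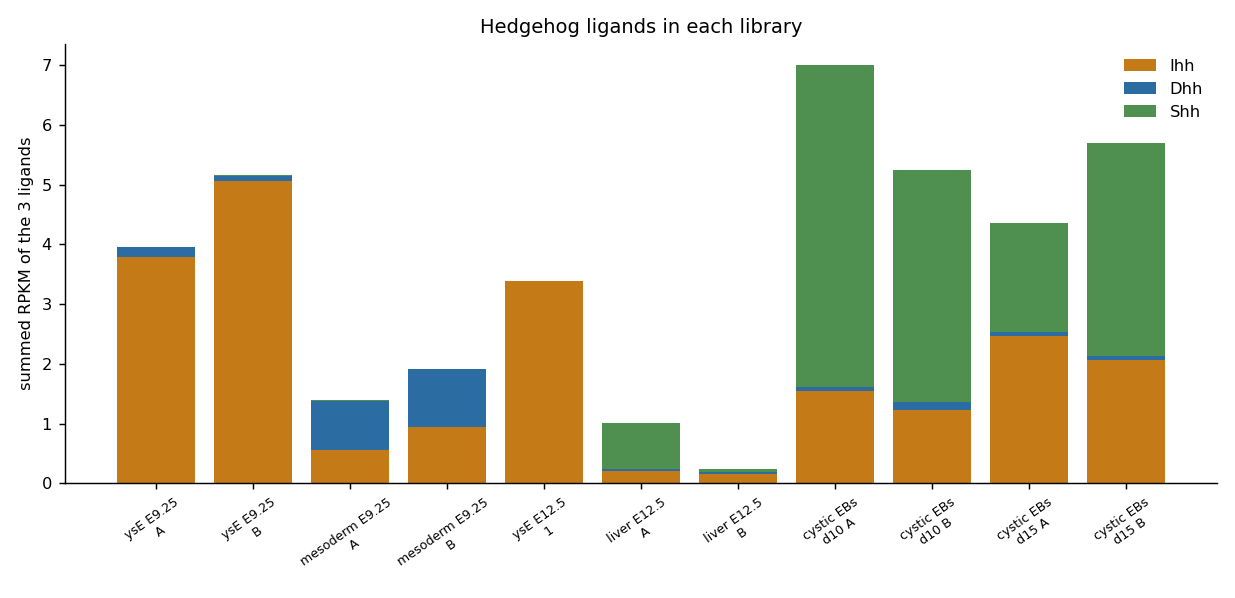
Hedgehog ligands in each library. Bars stack the RPKM of Ihh, Dhh and Shh for each of the 11 RNA-seq libraries. Ihh fills the bars of ysE, Dhh holds 50.7% to 59.4% of those of mesoderm, and Shh appears in cystic EBs and, at 0.781 RPKM, in liver A.

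The receiving side of the pathway was higher in mesoderm. Of the 9 genes, 7 were higher in mesoderm, against 16.9% of all tested transcripts, and 1 (Ihh) was lower, against 13.7%. In either direction 30.6% of all transcripts passed. The median log2 difference was 2.52 over the 9 genes and 0.05 over all transcripts. Apart from Dhh, the 7 were Ptch1, Smo, Hhip and the GLI factors. In bulk tissue a smaller share of cells with a transcript and less of it per cell cannot be told apart.

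Ptch1 (NM_008957, chr13:63508328-63573460), the receptor and at the same time a target of the pathway, had 12.0 and 12.9 RPKM in mesoderm A and B and 1.83 and 2.93 in ysE A and B. The difference was 2.07 (log2, SE 0.43, adjusted p = 0.00596), and it missed the threshold without ysE A (1.80, adjusted p = 0.0590). Ptch1 had 940 and 2262 reads in ysE A and B, and its level there was 19.2% of that in mesoderm. The highest such share among the mesoderm markers was 9.29% (Pdgfrb), and the part of carried-over mesoderm in the Ptch1 level of ysE was not tested. Smo (NM_176996, chr6:29735497-29761366), the membrane protein that Ptch1 holds inactive, was the most abundant of the 9 in each E9.25 library. It had 34.5 and 28.7 RPKM in mesoderm and 9.42 and 10.9 in ysE, a difference of 1.32 (log2, SE 0.39, adjusted p = 0.0295), and in ysE it stood at 32.1% of mesoderm. The Smo call rested on all 4 libraries, as leaving out any of them raised the adjusted p to between 0.0732 and 0.151.

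Hhip (NM_020259, chr8:79965850-80058060) is a membrane protein that binds and sequesters the ligands and is induced by the pathway. It showed the widest difference of the 9, with 5.13 and 5.31 RPKM in mesoderm and 0.195 and 0.272 in ysE (log2 4.16, SE 0.64, adjusted p = 0.00133). Per library, Hhip exceeded the summed ligands 3.66 and 2.76 times in mesoderm A and B, whereas in ysE A and B it was 0.0492 and 0.0526 of them.

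Gli1 (NM_010296, chr10:127329882-127341579), an activator that is itself switched on by the pathway, had 1.48 and 1.51 RPKM in mesoderm and 0.0890 and 0.142 in ysE (log2 3.37, SE 0.51, adjusted p = 0.00126). Gli2 (NM_001081125, chr1:118834061-119054405) had 0.398 and 0.438 against 0.0220 and 0.0370 RPKM (log2 3.47, SE 0.47, adjusted p = 0.000712). Gli3 (NM_008130, chr13:15463723-15730026) had 1.06 and 0.769 against 0.0690 and 0.0900 RPKM (log2 3.20, SE 0.61, adjusted p = 0.00393), a call that limma on log2(RPKM + 1) did not make (0.82, adjusted p = 0.141). The mesoderm and ysE libraries did not overlap for any GLI factor. In ysE the GLI factors stood at 7.06% to 8.69% of mesoderm and Hhip at 4.47%, within the range of the mesoderm markers (2.75% to 9.29%), and the part of mesoderm RNA in these ysE values was not tested. The GLI factors were lower in level than Ptch1 in every E9.25 library, and Gli1 was the most abundant of them, with 50.3% and 55.6% of their summed RPKM in mesoderm and 49.4% and 52.8% in ysE.

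**Figure D2:**
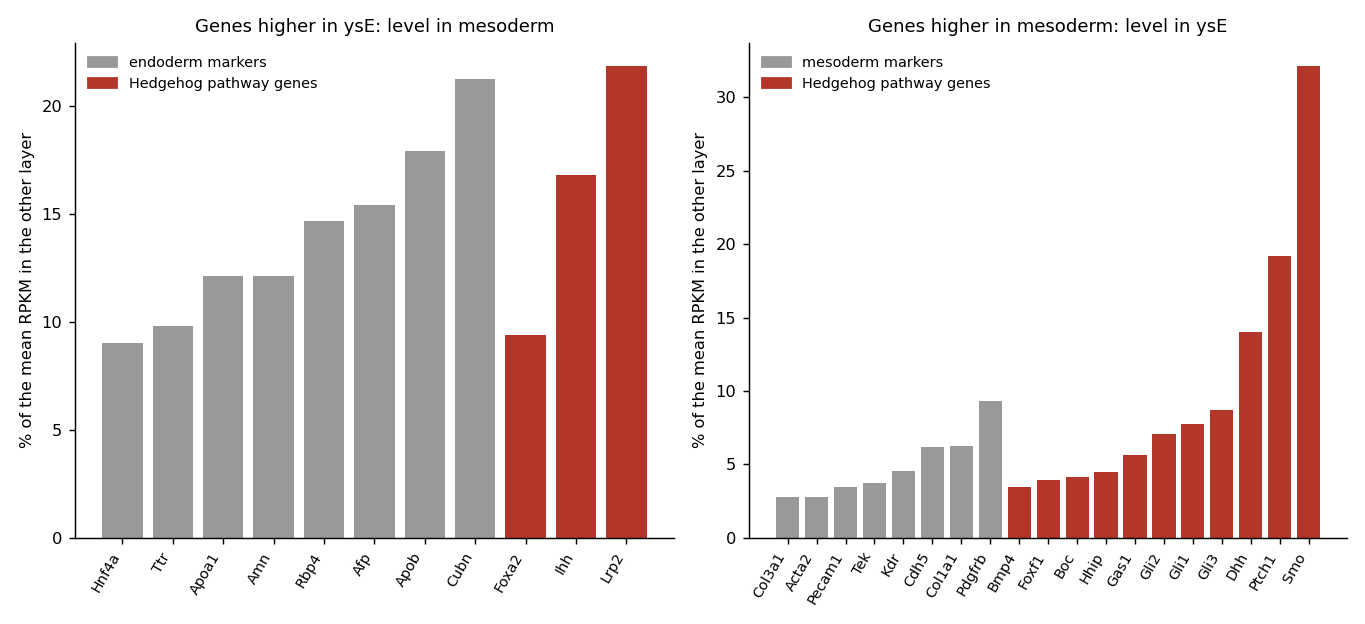
Levels of pathway genes and of layer markers in the layer where they were lower, as percent of the mean RPKM in the other layer at E9.25 (bars, 2 libraries a layer). Ihh, Lrp2 and Foxa2 in mesoderm (9.39% to 21.8%) stood near the endoderm markers (9.0% to 21.3%), while Dhh, Ptch1 and Smo in ysE (14.0% to 32.1%) stood above the mesoderm markers (2.75% to 9.29%).

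Coreceptors were mixed. Of 4, 2 were higher in mesoderm, 1 was lower and 1 was not called, against 16.9% higher and 13.7% lower of all transcripts. Boc, a ligand-binding surface protein, had 2.93 and 3.12 RPKM in mesoderm and 0.123 and 0.126 in ysE (log2 4.28, SE 0.47, adjusted p = 0.000335). Gas1, a ligand-binding protein of the cell surface, had 4.32 and 2.53 against 0.144 and 0.241 RPKM (log2 3.82, SE 0.60, adjusted p = 0.00142). Cdon, related to Boc, had 5.25 and 4.58 against 1.95 and 2.34 RPKM and was not called (log2 0.88, SE 0.40, adjusted p = 0.125), although it passed when only the E9.25 layers were fitted (adjusted p = 0.000874). Lrp2 (megalin), an endocytic receptor of absorptive epithelia that binds many ligands besides Shh, was lower in mesoderm, with 16.8 and 23.0 against 85.9 and 96.1 RPKM (log2 -2.51, SE 0.42, adjusted p = 0.00211).

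Of 6 genes for making and releasing the ligand, 2 were higher in mesoderm and none was lower. With so few genes these counts are near the shares of all transcripts (16.9% higher and 13.7% lower). Hhat, the acyltransferase that palmitoylates the ligands, had a mean of 2.62 RPKM in mesoderm and 0.545 in ysE (log2 1.95, adjusted p = 0.00657). Disp2 stood at 0.119 and 0.0115 RPKM (log2 3.01, adjusted p = 0.0224). Disp1, which releases the lipid-modified ligand from the cell, had 0.951 and 0.533 RPKM and did not pass (log2 0.52, adjusted p = 0.266). The other 3, Scube1, Scube2 and Scube3, which help carry the ligand away from the cell, did not pass either.

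Of 10 regulators inside the cell, 4 were higher in mesoderm and none lower, against 16.9% and 13.7% of all transcripts, with a median log2 difference of 0.49. These were Gpr161, a ciliary receptor that restrains the pathway (log2 2.99, adjusted p = 0.00149), Kif7, a ciliary kinesin that regulates the GLI factors (1.79, adjusted p = 0.0135), and the kinases Prkacb (0.81, adjusted p = 0.00884) and Gsk3b (0.86, adjusted p = 0.0211). Sufu, which holds the GLI factors in the cytoplasm, had a mean of 2.29 RPKM in mesoderm and 2.39 in ysE (log2 -0.38, SE 0.42, adjusted p = 0.539). Of 7 cilium genes, only Ift172 passed (log2 1.04, adjusted p = 0.0136), and the median of the 7 was 0.06, near that of all transcripts.

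Known targets in other tissues were higher in mesoderm in 8 of 10 cases and lower in 1, against 16.9% and 13.7% of all transcripts. Foxf1, a forkhead factor of splanchnic mesoderm, had 28.2 and 31.7 RPKM in mesoderm and 0.962 and 1.39 in ysE (log2 4.35, SE 0.67, adjusted p = 0.00134). Bmp4, a growth factor needed for blood and vessel formation, had 18.3 and 17.6 against 0.538 and 0.694 RPKM (log2 4.54, SE 0.55, adjusted p = 0.000442). Foxf2 (4.54, adjusted p = 0.00403) and Foxl1 (5.29, adjusted p = 0.0111), forkhead factors of the same kind of mesenchyme, were higher too, and so were Ccnd1, Ccnd2, Mycn and Bcl2. Foxa2, a target in floor plate and also a general endoderm factor, was lower in mesoderm (log2 -3.72, adjusted p = 0.000348, 13.9 RPKM in ysE and 1.30 in mesoderm). Nkx2-2 had 0.0205 RPKM in each layer. All 8 mesoderm markers and all 4 erythroid markers were also higher in mesoderm, with medians of 4.28 and 5.05 on the log2 scale, and the part of layer identity in the difference of any target was not tested.

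**Figure D3:**
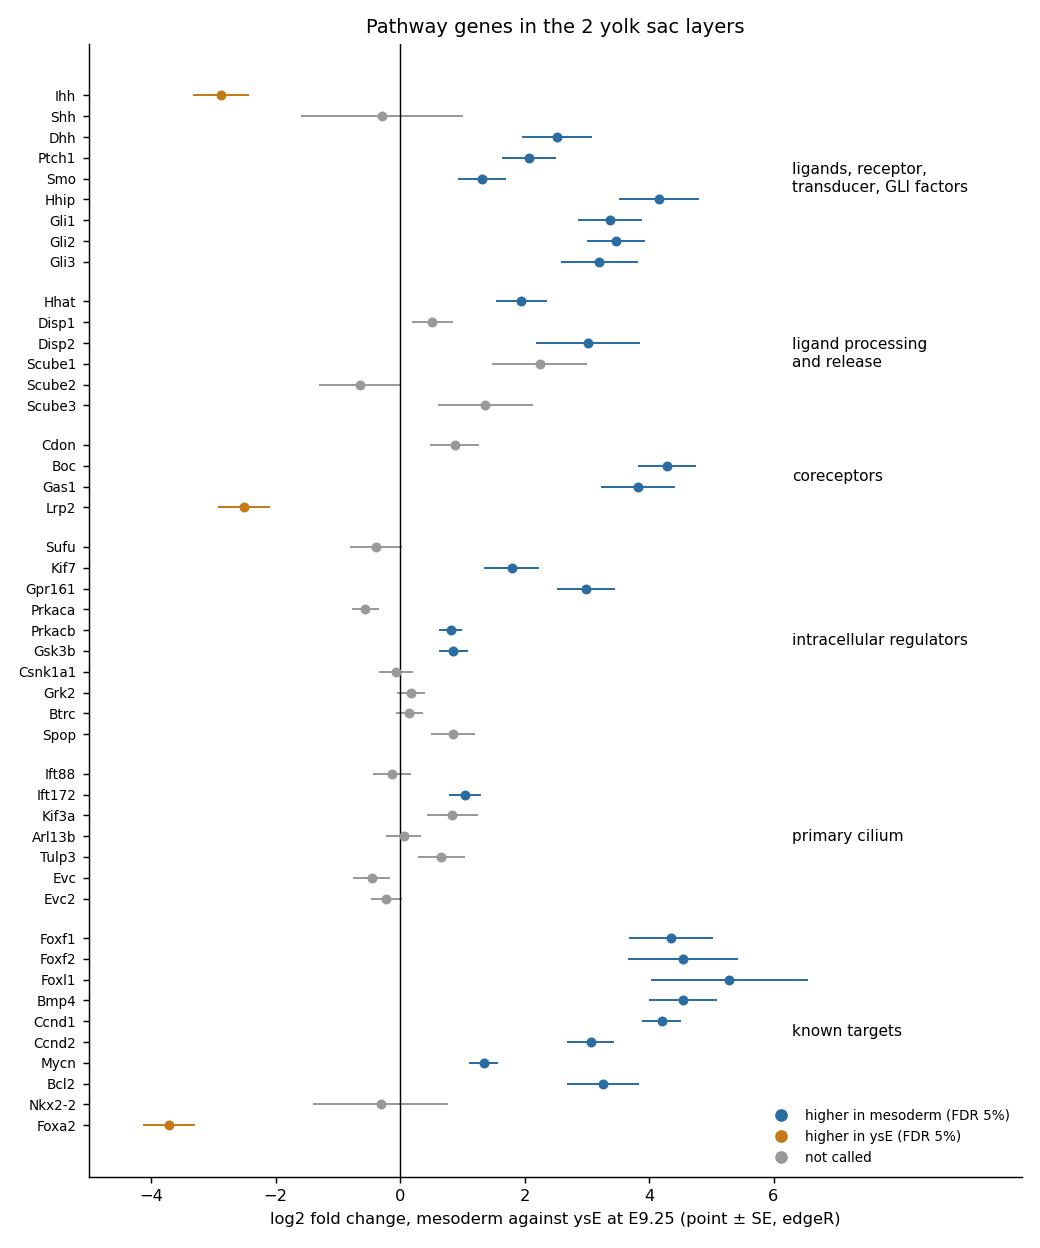
Log2 fold changes of pathway genes between mesoderm and ysE at E9.25 (points, with SE as bars; blue, higher in mesoderm; orange, higher in ysE; grey, not called at an FDR of 5%). Ihh, Lrp2 and Foxa2 lie on the left, most receptors, GLI factors and targets lie between 1.32 and 5.29 on the right, and the cilium genes centre near 0.

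In the endoderm alone, no change of the ligand, the receptor or Smo was called between E9.25 and E12.5. Ihh (4.43 RPKM ± 0.90, SD, n = 2, and then 3.39), Ptch1 (2.38 ± 0.78 and then 1.85) and Smo (10.1 ± 1.03 and then 15.3) were not called as changed (adjusted p = 0.622, 0.641 and 0.531). None of the 9 was higher at E12.5, against 3.9% of all transcripts, and 2 were lower, against 4.57% (8.47% in either direction). The 2 were Dhh and Hhip. At an unadjusted p of 0.05, 5 of the 9 passed in edgeR, all lower at E12.5, against 15.1% of all transcripts lower at the same threshold, and DESeq2 too called none higher, while Smo was called higher when the ysE libraries were fitted alone (log2 0.65, adjusted p = 0.00395). Hhip had 3 reads at E12.5 (0.00800 RPKM) and 0.195 and 0.272 RPKM at E9.25, a ratio of 31.6 with a 95% counting interval of 10.8 to 153.8 (edgeR adjusted p = 0.0254). Dhh had no read at E12.5 and 84 over both E9.25 libraries, which makes it at least 4.06-fold lower against a floor of 3 counts (edgeR adjusted p = 0.0223). Both calls were lost without ysE_E9.25 A (adjusted p = 0.0746 for Hhip and 0.0810 for Dhh) or B (0.0879 and 0.0535). Gli1 and Gli3 had 5 and 4 reads at E12.5 and log2 differences of -1.94 and -2.92 that did not pass (adjusted p = 0.140 and 0.105), although DESeq2 called Gli3 (-2.77, adjusted p = 0.0436). Gli2, with 2 reads, did not pass either (ratio 4.57 by counts, 95% counting interval 1.21 to 38.6, adjusted p = 0.119). Mesoderm markers summed to 19.3 RPKM at E12.5 against 31.8 to 50.5 at E9.25, erythroid markers to 223.5 against 850.8 to 1018. Of the mesoderm markers 3 of 8 were lower at E12.5 (median log2 -3.65), and of the erythroid markers 2 of 4 (-3.85). Most of the mesoderm sum at E12.5 was Col1a1 and Col3a1 (7.33 and 10.9 RPKM). Of the 4 hepatocyte markers 3 were higher at E12.5 (median log2 6.35, sum 1643 against 285.7 to 342.9 RPKM). Fgb made up most of the E12.5 sum (1508 RPKM). Fetal liver itself summed to 486.3 to 1017 RPKM, so the sum does not set liver apart from E12.5 ysE. Alb alone was higher in liver (357.5 and 766.6 RPKM against 80.5). The part of the mesoderm, erythroid and hepatocyte markers was not tested. The E12.5 stage is 1 library of another kit, so stage and kit cannot be told apart, and the library is assumed to vary like the other groups.

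At E12.5, fetal liver had little Ihh and more of the GLI factors and Hhip than ysE. Ihh had 0.198 and 0.150 RPKM in liver A and B against 3.39 in E12.5 ysE (log2 -4.31, SE 0.53, adjusted p = 0.000259). Of the 9 genes, 6 were higher in liver, against 23.7% of all transcripts, and 2 (Ihh and Smo) were lower, against 22.6% (46.3% in either direction). Gli1 (1.38 and 0.597 RPKM, log2 4.93, SE 0.81, adjusted p = 0.00112), Gli2 (0.604 and 0.314 RPKM, a ratio of 87.0 by counts with a 95% counting interval of 24 to 720.2, edgeR adjusted p = 0.000417) and Gli3 (1.19 and 0.445 RPKM, log2 6.17, SE 1.07, adjusted p = 0.00149) were far above the 0.0320, 0.00700 and 0.0110 RPKM of ysE. Hhip had 0.760 and 0.465 RPKM in liver and 0.00800 in ysE, a ratio of 103.9 by counts (95% counting interval 35.5 to 504.9, edgeR adjusted p = 0.0018). Ptch1, with 4.35 and 3.44 RPKM in liver and 1.85 in ysE, was not called (log2 1.04, adjusted p = 0.139). Liver A and B differed by 189 to 12 reads in Shh, and the call of Shh as higher in liver was lost without liver A (log2 2.65, adjusted p = 0.162). It was also lost, with adjusted p of 0.0502 to 0.0549, without either E9.25 ysE library or either cystic EB library of clone JN. Liver A exceeded liver B in all 9 genes and in 41.7% of tested transcripts. Mesoderm markers moved with the GLI factors and Hhip, as 6 of 8 were higher in liver than in E12.5 ysE (median log2 5.09, sums of 96.1 to 121.9 against 19.3 RPKM), and their part was not tested. Endoderm markers moved with Ihh, as 7 of 8 were lower in liver (median log2 -4.30), and their part was not tested either. Of the 4 hepatocyte markers, 0 were called higher in liver than in E12.5 ysE and 1 was lower (median log2 -0.79). Dhh, with 8 and 6 reads, lost its call without liver A (adjusted p = 0.0591) and in DESeq2 (0.0876), and Smo without liver A or B (0.0841 and 0.120) or either E9.25 ysE library (0.0561). In limma on log2(RPKM + 1) the calls of Gli3 and Hhip were lost (adjusted p = 0.174 and 0.226), as were those of Shh, Dhh and Smo. Both liver libraries came from the ScriptSeq kit and the lone ysE library of E12.5 from a non-stranded one, so tissue and kit cannot be told apart.

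**Figure D4:**
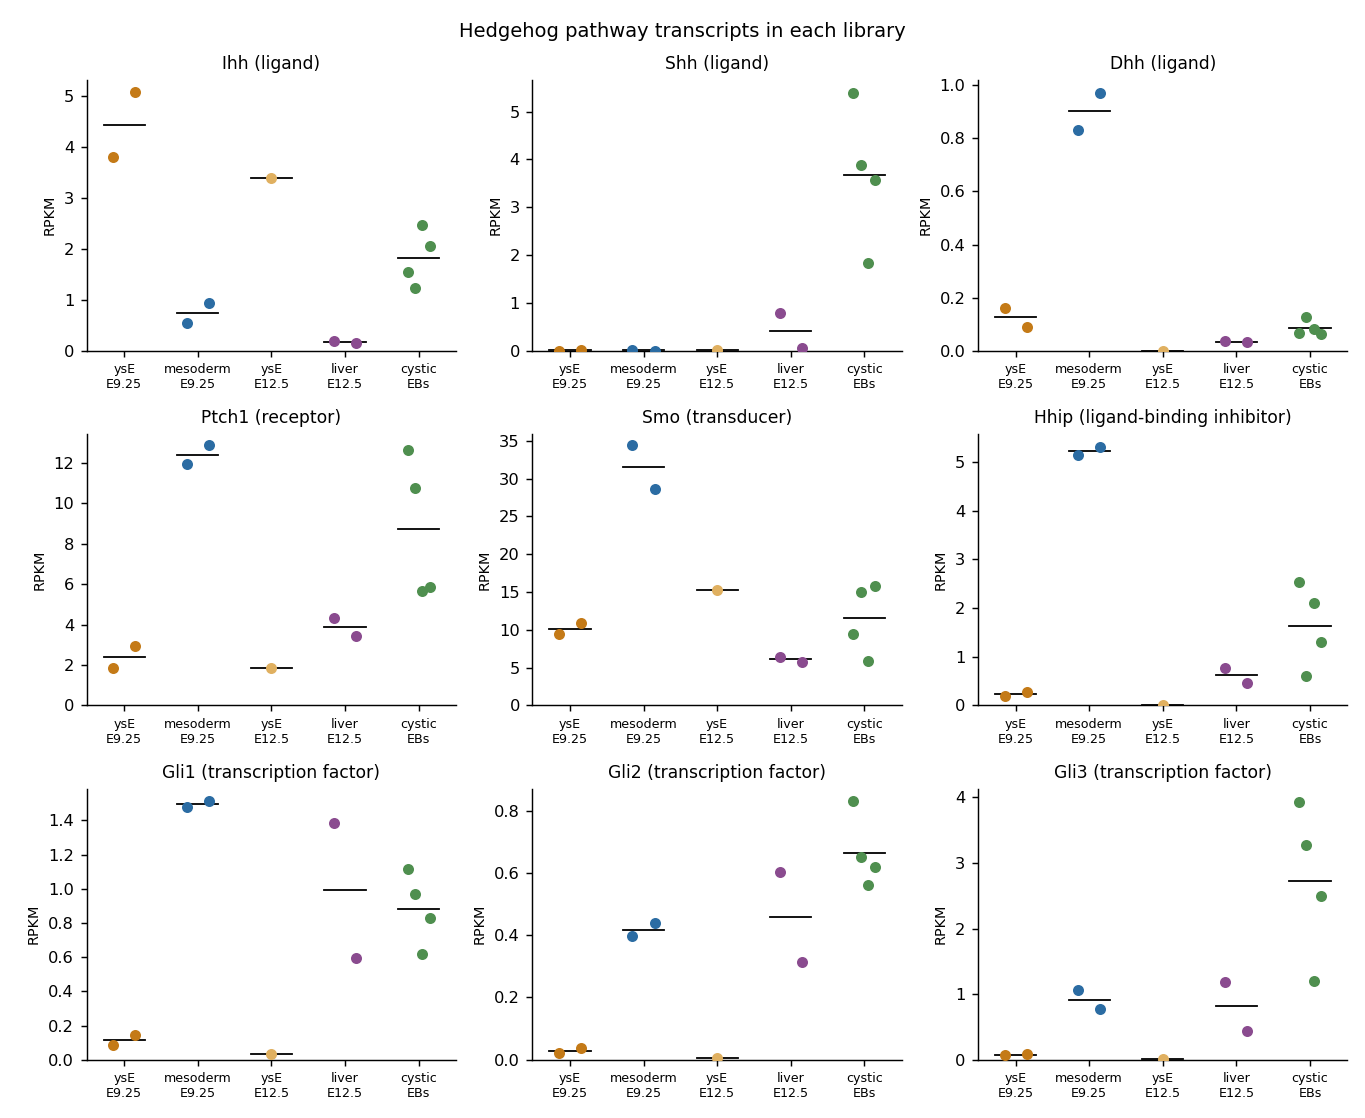
RPKM of the 9 genes in each RNA-seq library (points), grouped by tissue, with the group mean as a line (y axes differ between panels). Ihh is highest in ysE, Dhh, Ptch1, Smo, Hhip and Gli1 have their highest mean in mesoderm, and Shh, Gli2 and Gli3 in cystic EBs.

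In cystic EBs, ligand and receiving genes were found in the same libraries, and Shh was the most abundant ligand transcript in 3 of the 4 libraries, Ihh in A9 at d15. Shh had 5.40 RPKM in clone A9 and 3.88 in JN at d10 and 1.83 and 3.57 at d15, above each tissue library, the highest of which was liver A with 0.781. Against E9.25 ysE, Shh was higher by 7.75 (log2, SE 1.25, adjusted p = 0.000923). Ihh had 1.55, 1.23, 2.46 and 2.06 RPKM in the same order, below each ysE library and above each library of mesoderm and liver. It was lower than in E9.25 ysE (log2 -1.72, SE 0.35, adjusted p = 0.0032) and higher than in liver (3.05, SE 0.44, adjusted p = 0.000608). Shh made up 41.8% to 77.0% of the summed ligands and Ihh 22.1% to 56.3%, and the sum of 4.37 to 7.01 RPKM overlapped that of E9.25 ysE. The 8 endoderm markers together reached 177 to 1396 RPKM in cystic EBs, so Ihh per 1000 RPKM of these markers was 1.76 to 6.97 RPKM, against 0.343 and 0.406 in E9.25 ysE. This ratio was 0.0778 in E12.5 ysE and 0.109 and 0.0471 in liver A and B. In E12.5 ysE, Afp alone held 35558 of the 43511 RPKM of these markers. The ratio is thus no level per endoderm cell, and the part of endoderm content in the Ihh level was not tested. The 4 neural markers (Sox1, Pax6, Olig2 and Nes) summed to 6.28 to 13.8 RPKM in cystic EBs and to 0.585 and 0.612 in E9.25 ysE. Their sums were 12.4 and 5.85 RPKM in liver A and B, which overlapped the cystic EBs, and 4.65 and 3.85 in mesoderm A and B. Nes made up most of these sums. Sox1, Pax6 and Olig2 were each above 0 in the 4 EB libraries, but also in E9.25 ysE B and both mesoderm libraries. Sox1 had 0.969 RPKM in mesoderm A, within the 0.533 to 1.72 RPKM of the EB libraries. Pax6 (0.765 to 1.74 RPKM) and Olig2 (0.287 to 0.670) were higher in the EB libraries than in any tissue library (at most 0.0340 and 0.0290). The part of the neural markers in the Shh level was not tested.

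Cystic EBs exceeded E9.25 ysE in 6 of the 9 genes, against 27.1% of all transcripts, and Ihh was lower, against 23.2% (50.3% in either direction). Besides Shh, these were Ptch1 (5.67 to 12.7 RPKM, log2 1.43, SE 0.38, adjusted p = 0.0125), Gli1 (0.620 to 1.12, 2.48, SE 0.46, adjusted p = 0.002), Gli2 (0.563 to 0.830, 4.01, SE 0.46, adjusted p = 0.000145), Gli3 (1.20 to 3.94, 4.64, SE 0.63, adjusted p = 0.000362) and Hhip (0.597 to 2.53, 2.36, SE 0.55, adjusted p = 0.0065). None of the 4 EB libraries overlapped with ysE in these genes. All 4 neural markers (median log2 4.42) and 2 of 8 mesoderm markers (1.33) were also higher in cystic EBs, and all 8 endoderm (-4.52), all 4 erythroid (-4.17) and 2 of 4 hepatocyte markers (-2.11) were lower, and their part in these genes was not tested. Without ysE_E9.25 A, Ptch1 and Hhip lost their calls (adjusted p = 0.102 and 0.0606), and without d10 B Dhh was called lower (-1.28, adjusted p = 0.0453). This comparison shares its ysE libraries with that of the layers. Against mesoderm, Shh was higher, against 13.9% of all transcripts, and Dhh (log2 -3.51, SE 0.46, adjusted p = 0.000854), Smo (-1.59, SE 0.32, adjusted p = 0.00642) and Hhip (-1.80, SE 0.47, adjusted p = 0.0194) were lower, against 15% (28.9% in either direction). Of the mesoderm markers 6 of 8 were also lower in cystic EBs than in mesoderm (median log2 -2.73), as were 4 of 4 erythroid markers. Of the endoderm markers 3 of 8 were lower (-1.37), as was 1 of 4 hepatocyte markers, and 2 of 4 neural markers were higher (2.69). The part of these markers was not tested. Hhip lost its call without mesoderm A or B (adjusted p = 0.0857 and 0.105) and Smo without mesoderm A (0.0562). Ihh was just short of the threshold against mesoderm (log2 1.16, SE 0.39, adjusted p = 0.0503) and passed it in DESeq2 (1.21, adjusted p = 0.00748). Gli3 behaved likewise, with 1.44 in edgeR (adjusted p = 0.0629) and 1.5 in DESeq2 (adjusted p = 0.0132). Ptch1, Gli1 and Gli2 did not pass against mesoderm (log2 -0.64, -0.89 and 0.54 with SE of 0.35, 0.39 and 0.37).

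The mix of GLI factors differed from that of the tissues. Gli3 held 50.3% to 66.9% of the summed GLI RPKM in cystic EBs, against 28.3% to 38.3% in the libraries of E9.25 layers and liver. Foxf1, with 0.695 to 3.23 RPKM in cystic EBs and 28.2 and 31.7 in mesoderm, was lower by 4.16 (log2, adjusted p = 0.000576), and was not called against E9.25 ysE (0.20, SE 0.52, adjusted p = 0.766). Bmp4, with 4.65 to 11 RPKM, was above ysE (3.26, adjusted p = 0.000619) and below mesoderm (-1.29, adjusted p = 0.0358), the latter not without either mesoderm library (adjusted p = 0.147 and 0.154), d15 A (0.0646) or either ysE_E9.25 library (0.0599). Over the 10 known targets, 8 were higher and 1 lower than in ysE (27.1% and 23.2% of all transcripts), and 4 were higher and 4 lower than in mesoderm (13.9% and 15%). Against liver, 2 of the 9 genes were higher in edgeR (Ihh and Shh, against 24.6% of all transcripts). Neural markers were higher as well (3 of 4, median log2 7.20), hepatocyte markers (4 of 4, -7.65) and erythroid markers (3 of 4, -4.65) were lower, endoderm markers were split (2 higher and 4 lower of 8) as were mesoderm markers (1 and 1 of 8), and their part was not tested. DESeq2 called Gli3 higher as well (1.32, adjusted p = 0.0239), as did limma (adjusted p = 0.0279), while edgeR did not (1.39, adjusted p = 0.0521). None was lower in edgeR or in DESeq2 (20.9% of all in edgeR, and 45.4% in either direction), also at an unadjusted p of 0.05 in edgeR. Shh against liver was 2.76 (log2, SE 0.91, adjusted p = 0.0332) and lost its call without liver B (1.87, adjusted p = 0.0885), d10 A (0.0562) or d15 B (0.0561).

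Between d10 and d15, none of the 9 genes was called by edgeR with clone as a term, against 0.354% of all transcripts called (0.33% higher and 0.0241% lower at d15). At an unadjusted p of 0.05, 2 passed, Ptch1 and Gli3, both lower at d15, against 5.35% of all transcripts lower at the same threshold. Ptch1 had 12.7 and 10.8 RPKM at d10 and 5.67 and 5.88 at d15 (log2 -1.02, SE 0.23, adjusted p = 0.112), so the days did not overlap, and DESeq2 called it (-1.04, adjusted p = 0.00168). Between the clones, Smo was higher in JN than in A9 (15.0 and 15.9 against 9.48 and 5.87 RPKM, log2 0.99, SE 0.18, adjusted p = 0.00426), against 14.6% of all transcripts (27.2% in either direction). Hhip was lower (0.597 and 1.31 against 2.53 and 2.10 RPKM, log2 -1.44, SE 0.34, adjusted p = 0.0155), against 12.6%. In JN 3 of 8 mesoderm, 5 of 8 endoderm and 1 of 4 hepatocyte markers were lower too and 1 endoderm marker was higher, with mesoderm sums of 42.3 RPKM in JN and 163.4 in A9 at d10 and 202.7 and 187.4 at d15, and their part was not tested. The Smo call was lost without d15 A or d15 B (0.70 and 0.67 on the log2 scale, adjusted p = 0.0683 and 0.0819) and that of Hhip without d10 A or d10 B (-0.84 in each case, adjusted p = 0.182 and 0.176). JN libraries were dUTP and A9 libraries ScriptSeq, and the paper lists JN as XX and A9 as XY. Clone, kit and sex thus cannot be told apart.

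The pattern over the 11 libraries, as Pearson's r of log2(RPKM + 1), was nearest to that of Ihh in Tmem144 (0.991), Manba (0.978) and A4galt (0.976), to that of Ptch1 in Kctd12b (0.974), Scara3 (0.968) and Flywch1 (0.962), and to that of Gli1 in Prickle2 (0.974), Mpdz (0.967) and Reep1 (0.967). These are the highest of 24857 values for each gene, over libraries that share groups and kits, and serve as a description. Among the 9 genes themselves, Gli2 and Gli3 (0.930), Shh and Gli3 (0.915) and Ptch1 and Gli1 (0.861) ran closest, while Ihh and Gli1 ran most opposite (-0.768).

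Counts per exon part of the Ensembl genes, available for E9.25 ysE A and the cystic EBs, give the genes from another annotation of the same reads. Shh (3 parts) had 1 read in ysE A and 199 to 718 in the EB libraries, and Ihh (3 parts) had 1124 and 244 to 640. In the EB libraries the RefSeq table held more Shh reads (279 to 1191) and about as many Ihh reads (239 to 624). The same gap was seen for Hhip, with 401 to 1062 reads on exon parts in the EB libraries and 130 in ysE A, against 624 to 1469 and 211 in the RefSeq table. Whether either count used the strand of the read is not given in the sources used here, so antisense reads cannot be told apart from those of either gene, and the cause of the gap was not tested. All 21 parts of Gli3 were read in each EB library, where the largest part held 47.1% to 59.4% of 616 to 3376 reads. In ysE A 10 parts were read, and 1 part held 71.6% of only 74 reads. The part of Shh with most reads held 51.4% and 48.2% of them in the A9 libraries (d10 and d15) and 76.5% and 78.7% in the JN libraries, which also differ in kit.

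H3K4me3, a mark of active and poised promoters, was present at most of these genes in whole E12.5 VYS. Of the 9, 8 had a peak within 1 kb of either end of the gene, as did 58.5% of all 21883 protein-coding genes. Over the start site of the 7 genes for which it is known, a peak lay in 6. The share of all genes with a peak over the start site was not computed, so this count has no background. Ihh (chr1:74948628-74952309), Ptch1 (chr13:63561861-63569115), Smo (chr6:29735328-29737730), Gli2 (chr1:119050829-119054461) and Hhip (chr8:80054297-80058172) each had a peak at the score of 3100 that 23.6% of peaks share, and Gli3 had one with a score of 2063 (chr13:15463196-15465435). These are the promoters shown above, except Smo and Gli3. Dhh had no peak at its start site. Its peaks lay at its lower end, which is its 3′ end and lies next to the gene Rhebl1, which the stronger peak overlaps. Gli1 had a peak at its upper end (chr10:127340196-127342237, score 1244), and Shh had none within 1 kb of an end and 1 of low score in the gene (235, against a median of 863). Gli2 and Hhip, which had 2 and 3 reads in E12.5 ysE, carried peaks at this shared score of 3100 (1.195% of peaks scored higher), but the sample held both layers, so the layer that carried the mark cannot be told apart.

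DNA methylation was thinly covered, with few reads per window, and is given as values (exact Clopper-Pearson 95% intervals, which cover counting error only). With 2 libraries a tissue no exact test can pass the threshold. Ptch1 and Gli3 had no reads, as chromosome 13 held 0 to 13 calls per library. Dhh had none in liver, as chromosome 15 held 0 calls in both liver libraries, against 166160 to 258050 in the others. Within 1 kb of the Gli2 start site, 68.2% of 22 reads were methylated in the CxF library of ysE (interval 45.1% to 86.1%), the FxC library had no read there, and the liver libraries had 3.45% of 29 reads and 0% of 11, those of cystic EBs 16% of 25 and 0% of 12. The upper bounds in these 4 were 17.8%, 28.5%, 36.1% and 26.5%. Since 1 ysE library alone gave reads, the spread between ysE libraries is unknown, and no difference between tissues is read from these values. The median over all start sites was 42.9% in that ysE library and above it in each library of liver (62.5% in FxC) and cystic EBs (68.8% in FxC). The window within 1 kb of the upper end of the gene (chr1:119053405-119055405) overlapped that of the start site (chr1:119052619-119054619) and is no separate region. Both ysE libraries had reads there (70.4% of 27 and 66.7% of 6), and cystic EBs had 31.0% of 29 and 0% of 12. Liver had 4 of 20 reads methylated in CxF and 73.3% of 15 in FxC, so 1 of these 4 liver and EB libraries was as high as ysE there. At the Dhh start site, which carried no peak, 12 of 12 reads were methylated in ysE CxF but 0 of 4 in ysE FxC, and cystic EBs had 66.7% of 18 in CxF and 3 of 3 in FxC.

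At the Ihh start site 40.7% of 27 reads were methylated in ysE CxF and 42.9% of 7 and 44.4% of 9 in the cystic EBs, and the liver had 1 and 3 reads. Over the Ihh gene, ysE had 53.6% of 69 reads in CxF and 3 of 6 reads in FxC, cystic EBs 71.0% and 69.6%, and liver 8.33% and 16.7% (12 and 18 reads). Liver had the lowest values, but on 5 and 16 CpG calls against 48 in ysE CxF, so the CpGs read can differ. The interval of liver FxC (3.58% to 41.4%) reached that of ysE CxF (41.2% to 65.7%), and no difference between tissues is read from these values. For Hhip and Gli2 the lowest values were in ysE. Hhip was 61.3% and 61.0% methylated there over the gene, liver stood at 77.7% and 79.1%, and cystic EBs at 88.3% and 86.3% (344 to 665 reads). Gli2 had 65.1% and 64.0% in ysE, liver 68.3% and 73.1%, and cystic EBs 80.4% and 80.8% (644 to 1162 reads). The libraries of different tissues did not overlap for either gene. The medians over all gene bodies had the same order, at 71.9% and 66.7% (ysE), 79.0% and 81.0% (liver) and 86.1% and 81.7% (cystic EBs), so this order is not particular to Hhip and Gli2.

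**Figure D5:**
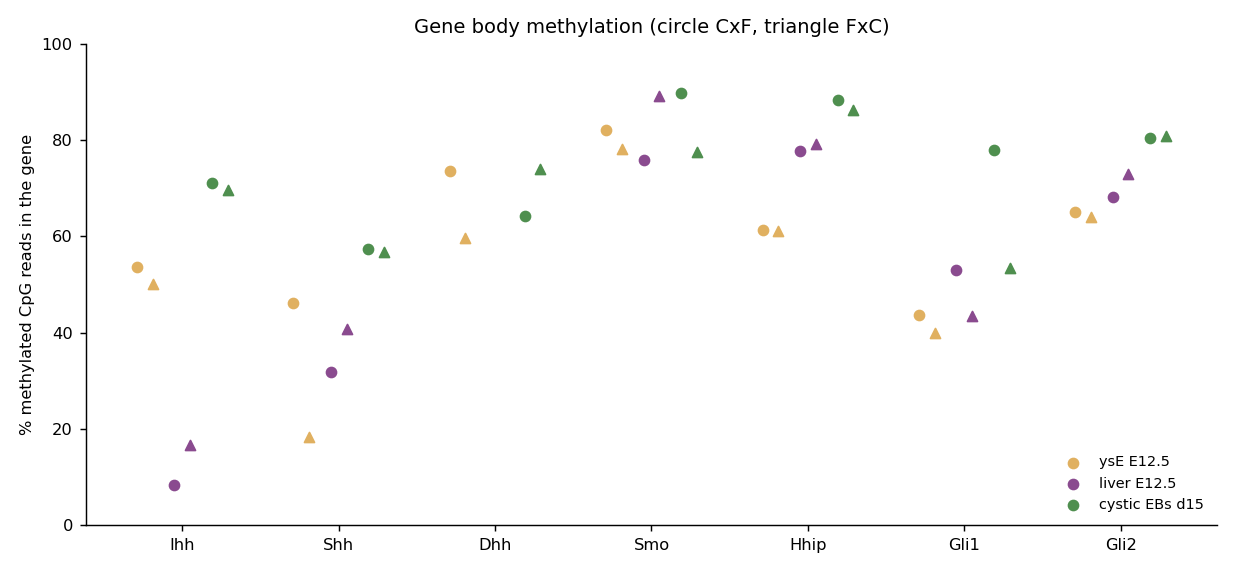
Percent of methylated CpG reads in the gene for the 7 genes with reads, in E12.5 ysE, E12.5 liver and d15 cystic EBs (circle, CxF library; triangle, FxC library). Ihh is lowest in liver (8.33% of only 12 reads and 16.7% of 18), while Hhip and Gli2 are lowest in ysE and highest in cystic EBs.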

How the data were processed

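RNA-seq, bisulfite and H3K4me3 files were used as the authors deposited them. For RNA-seq the authors aligned reads with GSNAP (genome build mm10, per the submitters' processing notes) and deposited a table of raw read counts for each RefSeq transcript and a second table with RPKM values. The exon-part counts were deposited by the authors without normalization, and 1 file for E9.25 ysE held only zeros and was not used. For bisulfite data the deposited files give, for each CpG, its reads and what percent of them was methylated (BisSNP), and for H3K4me3 the MACS (1.4.2) peak score. The repeat table was not used here.

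The 9 genes, the gene lists and the tests were chosen with earlier results of these data known, and named genes were every member, Cdon, Boc, Gas1, Foxf1 and Bmp4, of each other list up to 4 genes with the largest differences between the layers among those past the threshold, and the 3 genes most like Ihh, Ptch1 and Gli1. Others named (Disp1, Sufu, Afp, Nkx2-2, Foxa2, the Scube genes, the cyclins, Mycn and Bcl2) were chosen after their values were seen. A further pathway gene is not reported here and is in none of the list counts, for a reason unrelated to its values. Counts were fitted in R 4.3.3 with edgeR 4.0.16 (filterByExpr, TMM, quasi-likelihood, 5 groups, and clone as a term for day and clone), with DESeq2 1.42.0 and limma 3.58.1 on log2(RPKM + 1) as alternatives. Adjustment followed Benjamini-Hochberg over 24858 transcripts, with an FDR of 5%. P-values measure the spread between these samples. In the fit of 5 groups the 4 cystic EB libraries counted as replicates, although they are clones A9 and JN, each at d10 and d15. Their spread by clone, kit and day entered the p-values of every comparison in that fit, that of the layers too. The biological coefficient of variation (spread beyond counting noise) was 0.40 in that fit and 0.25 with day and clone as terms. Replicate letters were not treated as pairs. Methylated reads were summed over windows with at least 5 reads. Fold bounds and counting intervals use total counts, not TMM. Replicate libraries differed by more than sampling noise. The Ensembl names of the exon parts and the promoters (RefSeq, GRCm38.p6, the same build as mm10) came from reference tables.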

Additional observations from a re-analysis of the deposited data

How the results depend on the processing

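Between the E9.25 layers, 7 genes higher and 1 lower in mesoderm stood under each scaling, filter and tool, except that limma on log2(RPKM + 1) gave 6 higher (without Gli3). Leaving out 1 library gave 5 to 7 higher and 1 lower. With the replicate block the counts were again 7 and 1, and no call of the 9 changed. Nothing in the labels says what the letters share, and the deviations of same-lettered libraries from their group means correlated at -0.086, which with 2 pairs does not settle whether they are paired. Without the clone term, 0 genes passed between d10 and d15, as with it. Other comparisons moved more. For E12.5 against E9.25 ysE, 0 were lower in limma and 3 (with Gli3) in DESeq2 and with these groups alone, against 2, and 1 (Smo) was higher with these groups alone, and leaving out a library gave 0 to 2 lower. For cystic EBs against mesoderm, 2 were higher with DESeq2's size factors, 1 transcript a gene, limma or dUTP libraries alone, and 3 in DESeq2, against 1, and leaving out a library gave 1 to 2 higher and 1 to 3 lower. For cystic EBs against liver, 4 were higher in limma and 1 with these groups alone, against 2, and leaving out a library gave 1 to 5. For liver against E12.5 ysE, limma gave 2 higher and 1 lower against 6 and 2. Leaving out a library there lost calls in both directions (Shh and Dhh higher, Smo lower), as given above. For cystic EBs against E9.25 ysE, leaving out a library lost the higher calls of Ptch1 and Hhip or added Dhh as lower. Between clones it lost the calls of Smo or Hhip. DESeq2 called 1 gene lower at d15. The cause of these changes was not tested. Of 1942 values of single genes under the alternatives, 62 lost the call, 41 gained it, and none that was called in either setting changed sign. The other 1839 were counted as the same, and these include any change of sign in a gene called in neither setting. Of the 30 methylation values in the 2 kb window, 13 moved by more than the SD between libraries. The rest of the 201 values came from other read minimums or from leaving out 1 of 2 libraries. Under this rule those could not move, so they are no check.

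Over all transcripts, calls between the layers (4212 higher, 3401 lower) ranged from 2298 to 6620 and from 1372 to 6540. Those of E12.5 against E9.25 ysE (969 and 1137) ranged from 153 to 5270 and from 196 to 5289, of cystic EBs against ysE (6742 and 5758) from 3986 to 7981 and from 3466 to 6326, against mesoderm (3460 and 3727) from 924 to 5057 and from 1588 to 4978, and against liver (6112 and 5185) from 3345 to 7368 and from 3323 to 5804. Those between days (82 and 6) ranged from 0 to 821 and from 0 to 395, and between clones (3640 and 3122) from 1872 to 4913 and from 1708 to 4036. Of the calls between E12.5 and E9.25 ysE, 46.0% were higher at E12.5, but 58.6% with DESeq2's size factors and 64.8% in limma, and the median over all transcripts went from -0.21 to -0.04 and -0.01. The higher share was 53.9% for cystic EBs against ysE (67.3% in limma) and 93.2% at d15 (67.5% in DESeq2 and 64.2% in limma). The median for liver against E12.5 ysE was 0.26, and 0.05 without the filter. Counts were low for Shh in the yolk sac and for the GLI factors and Hhip in E12.5 ysE, and reads were few in the methylation windows at start sites.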
